A study of Mus musculus with 14 samples.

Results

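The enzymes that place acetyl groups on histones and those that remove them were followed across 14 mouse RNA sequencing libraries. The 31 genes were named by symbol and were looked up among the 55291 symbols of the deposited tables, where each of them was found. They comprise 11 classical histone deacetylases, 7 sirtuins and 13 acetyltransferases. The study had 2 experiments, on the inhibition of acetyl-CoA carboxylase in cultured CD8+ T cells and on CD8+ T cells taken from tumors. In the first, whole splenocytes of OT-1 mice, a strain whose CD8+ T cells recognize a peptide of ovalbumin, were cultured with 100 nM ND-646 (n = 4) or with DMSO vehicle (n = 4). ND-646 inhibits acetyl-CoA carboxylase, which turns acetyl-CoA into malonyl-CoA, the building block of fatty acids. In both arms the ovalbumin peptide (1 µg/mL) and recombinant human interleukin-2 (200 U/mL) were given, for 3 days of activation and 4 further days of expansion. In the second experiment, MCA205 fibrosarcomas (n = 3) and spleens (n = 3) of C57BL/6 mice gave CD8+ T cells, 14 days after tumor cells were injected under the skin of the flank. These T cells were enriched with an isolation kit and then sorted. All samples are labelled as wild type, and the ages of the mice are not given. The tumor samples are described as pooled, without a statement of what was pooled.

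Histone acetyltransferases take the acetyl group from acetyl-CoA, the same metabolite that acetyl-CoA carboxylase consumes, and transfer it to lysines of histones and other proteins. The classical deacetylase family (classes I, IIa, IIb and IV) is built around a zinc ion, and not all of its members act mainly on acetylated histones. Sirtuins (class III) consume NAD to remove the acetyl group. In CD8+ T cells some of these enzymes are known for setting which effector and memory genes stay accessible after activation.

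Promoters are shown for the 3 genes whose transcripts rose most in tumor over spleen on the log2 scale, Hdac6, Hat1 and Sirt1, and they were chosen after these values were seen. Each is the RefSeq promoter of build GRCm38.p6, read 5′ to 3′ on the gene's strand, with 250 bases before the transcription start and 50 after it. Capitals mark the CCAAT box (CCAAT) and the GC box (GGGCGG) on either strand, and overlapping matches were counted separately. The Hat1 promoter lies at chr2:71389010-71389309 on the plus strand, the Hdac6 promoter at chrX:7947840-7948139 on the minus strand and the Sirt1 promoter at chr10:63338986-63339285 on the minus strand.
Hat1: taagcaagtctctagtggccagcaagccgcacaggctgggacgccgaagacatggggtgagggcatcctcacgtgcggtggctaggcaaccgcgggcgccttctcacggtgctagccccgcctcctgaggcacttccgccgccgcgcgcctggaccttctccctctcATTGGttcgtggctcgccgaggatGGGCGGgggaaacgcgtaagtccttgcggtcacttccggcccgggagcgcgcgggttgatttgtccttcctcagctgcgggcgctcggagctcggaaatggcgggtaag
Hdac6: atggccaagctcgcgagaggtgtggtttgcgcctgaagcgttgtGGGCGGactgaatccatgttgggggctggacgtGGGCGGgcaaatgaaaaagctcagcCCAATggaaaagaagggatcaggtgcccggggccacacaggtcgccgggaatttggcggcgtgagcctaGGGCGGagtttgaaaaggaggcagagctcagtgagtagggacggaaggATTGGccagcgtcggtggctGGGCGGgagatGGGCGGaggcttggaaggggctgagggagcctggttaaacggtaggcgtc
Sirt1: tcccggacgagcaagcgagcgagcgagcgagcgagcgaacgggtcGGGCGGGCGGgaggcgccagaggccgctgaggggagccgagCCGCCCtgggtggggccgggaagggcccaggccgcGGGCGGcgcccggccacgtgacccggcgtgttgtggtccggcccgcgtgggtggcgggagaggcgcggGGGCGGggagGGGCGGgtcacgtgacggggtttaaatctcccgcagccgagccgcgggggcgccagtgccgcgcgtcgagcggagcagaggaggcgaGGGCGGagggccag
The Hat1 promoter held 1 CCAAT box and 1 GC box. The Hdac6 promoter held 2 CCAAT boxes and 5 GC boxes. The Sirt1 promoter held 7 GC boxes, of which 1 pair overlaps, and no CCAAT in this window. Of the 31 genes, 25 had a promoter entry, with 35 promoters in all. A CCAAT box was present in 14 of these 35 and in 37.4% of all 32851 mouse promoters in the table. A GC box was present in 21 of the 35 and in 35.7% of all promoters. These matches describe letters only.

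Libraries held 27.9 to 33.8 M counts with ND-646, 23.5 to 29.0 M with vehicle, 19.6 to 21.0 M in tumor and 19.8 to 20.8 M in spleen (M, 1e+06). Levels are given as CPM, counts per 1e+06 of a TMM-scaled library, and the upper limit behind an observed 0 (3 counts) equals 0.0878 to 0.154 CPM, depending on the library. The label CD8+ T cell was checked with Cd8a, which was at 470 to 482 CPM with ND-646, 674 to 787 with vehicle, 776 to 1079 in tumor and 1530 to 1564 in spleen. Cd4 was at no more than 1.58 CPM in any of the 14 libraries. In bulk RNA, fewer cells of a type and less RNA per cell cannot be told apart.

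Markers of other cell types differed in both comparisons. Fibroblast and fibrosarcoma markers summed to 13655 to 19731 CPM in tumor libraries, against 5.73 to 23.6 CPM in spleen libraries, and 24 of 24 tested markers were higher. CD8 T cell identity genes summed to 5400 to 7152 CPM in tumor, against 11917 to 12009 CPM in spleen, and 17 of 17 were lower. Markers of myeloid cells (254 to 361 against 324 to 342 CPM, 8 of 13 tested higher), NK cells (560 to 727 against 145 to 165 CPM, 8 of 9 higher), CD4 and regulatory T cells (388 to 517 against 44.1 to 49.5 CPM, 5 of 8 higher), endothelium (112 to 126 against 215 to 220.4 CPM, 7 of 9 higher) and B cells (93.3 to 104 against 801 to 833 CPM, 6 of 7 lower) are given as sums in tumor against spleen. Most of the myeloid sum is Ly6c2, at 273 ± 53.0 CPM in tumor and 323 ± 9.59 CPM in spleen (edgeR adjusted p = 0.106). No other myeloid marker exceeded 3.09 CPM in a spleen library. Most of the endothelial sum in spleen is Pecam1, the 1 endothelial marker called lower, at 27.0 ± 1.76 CPM in tumor and 166 ± 5.47 CPM in spleen. Eng averaged 51.1 ± 2.97 CPM in spleen, where no other endothelial marker exceeded 0.499 CPM. Several of the NK and regulatory T cell genes, such as Klrk1, Klrc1 and Ctla4, are also expressed by activated CD8+ T cells. In the cultures, fibroblast markers summed to 11.8 to 13.6 CPM with ND-646, against 13.2 to 14.1 CPM with vehicle (1 higher and 2 lower of 5 tested), with Col5a1, Mmp3, Loxl1 and Bgn at 0 in every culture library. Myeloid markers summed to 16.2 to 23.5 CPM with ND-646, against 26.0 to 28.9 CPM with vehicle (1 higher and 3 lower of 5), with C1qc, S100a8, S100a9 and Csf3r at 0. B cell markers fell for 5 of 7 with ND-646 (median log2 fold change -2.39), although their sum was 148 to 174 CPM with ND-646, against 115 to 131 CPM with vehicle. Most of that sum is Ighm, the 1 B cell marker that rose, at 162 ± 11.2 CPM with ND-646 and 115 ± 7.11 CPM with vehicle. NK cell markers fell for 4 of 7 (median -1.41), while Klrc1 and Klrk1 rose, and their sum was 302 to 326 CPM with ND-646, against 249.7 to 272 CPM with vehicle. The other culture sums, with ND-646 against vehicle, were 924 to 955 against 1357 to 1384 CPM for CD4 and regulatory T cells (1 higher and 6 lower of 8) and 46.7 to 53.6 against 64.9 to 71.3 CPM for endothelium (3 lower of 3), with Cdh5, Emcn and Tie1 at 0. CD8 T cell identity genes summed to 6895 to 7004 CPM with ND-646, against 7330 to 7564 CPM with vehicle. The part of these cell types in the results for single genes was not tested.

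With ND-646, 21 of the 30 genes that could be tested changed (70%, at an adjusted p under 0.05 in edgeR), beside 56.3% of all 14251 genes tested. Of them 13 rose, beside 29.8% of all genes, and 8 fell, beside 26.5%. The ND-646 and vehicle libraries did not overlap for 19 of the 30, beside 51.1% of all genes. The changes were small: the median absolute log2 fold change was 0.18, against 0.23 over all genes, and the largest was 0.84. Among genes with a mean of 20 CPM or more, 64.8% changed, so the share for these enzymes lay near that of well expressed genes. In the CD8+ T cell samples from tumors, 26 of 31 genes differed from spleen (83.9%), beside 83.8% of 15042 genes tested. Of them 7 were higher, beside 43.6% of all genes, and 19 were lower, beside 40.2%. The tumor and spleen libraries did not overlap for 27 of the 31, beside 86.2% of all genes. The median log2 fold change was -0.43, against 0.03 over all genes, and 6 of the 31 differed at least 2-fold, beside 46.7% of all genes. The direction of the tumor comparison depends on the scaling: when libraries were scaled by the 17 CD8 T cell identity genes in place of TMM, the median of all genes moved up by 0.99 on the log2 scale, 85.4% of called genes were higher in place of 52.0%, and 20 of the 31 enzymes were higher and 2, Hdac7 and Sirt7, were lower.

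**Figure D1:**
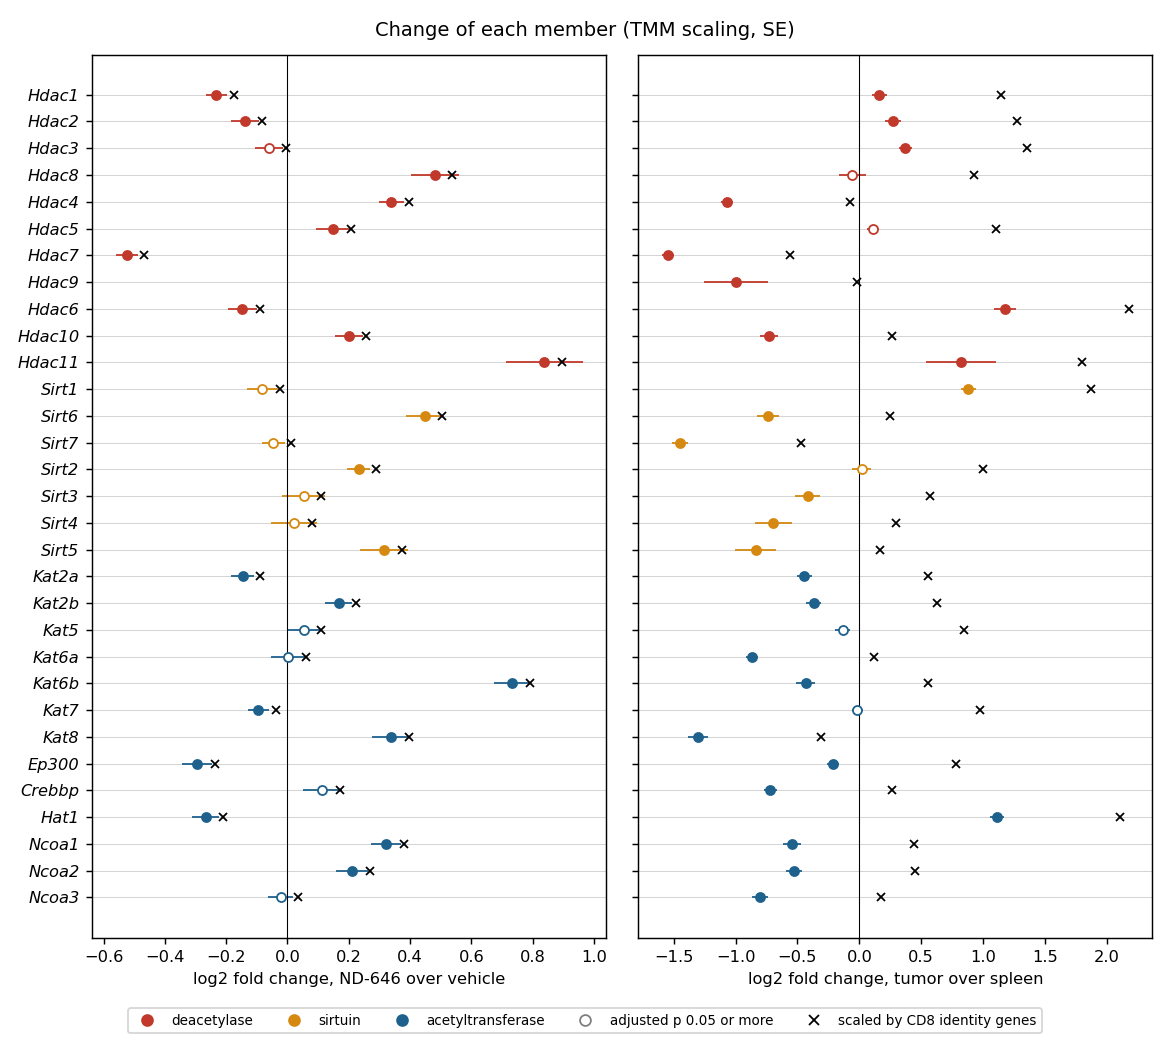
Log2 fold change of each of the 31 genes with ND-646 over vehicle (left, n = 4 each) and in tumor over spleen (right, n = 3 each); points are TMM-scaled values with their standard error, open points have an adjusted p of 0.05 or more, and crosses are the same comparison scaled by the 17 CD8 T cell identity genes. In the tumor panel the crosses lie about 0.99 to the right of the points, and only Hdac7 and Sirt7 remain called as lower there.

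Per kilobase of the longest coding transcript, Hdac1, Hdac7 and Sirt7 took the top 3 places in every group. Hdac7 stood at 49.3 ± 1.504 CPM per kb with ND-646, 70.9 ± 1.87 with vehicle, 40.3 ± 1.47 in tumor and 117.6 ± 2.24 in spleen (SD). Hdac1 stood at 62.9 ± 1.21 CPM per kb with ND-646, 73.9 ± 1.55 with vehicle, 78.8 ± 6.57 in tumor and 70.5 ± 1.36 in spleen. Sirt7 stood at 65.8 ± 2.25 CPM per kb with ND-646, 68.0 ± 1.89 with vehicle, 41.8 ± 3.67 in tumor and 114 ± 2.45 in spleen. In tumor, Sirt7 and Hdac7 differed by less than the SD of Sirt7. Hdac9 and Hdac11 took the last 2 places in every group, and in spleen, where Hdac11 had 0.329 ± 0.0900, they differed by less than their SDs. Hdac9 had 0.0637 ± 0.0388 CPM per kb with ND-646, 0.0108 ± 0.01005 with vehicle, 0.159 ± 0.0450 in tumor and 0.319 ± 0.0353 in spleen. Among acetyltransferases, Kat7 led in both cultures (31.8 ± 0.738 with ND-646, 34.004 ± 0.499 with vehicle), Hat1 in tumor (34.4 ± 0.550) and Kat2a in spleen (33.1 ± 1.31).

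**Figure D2:**
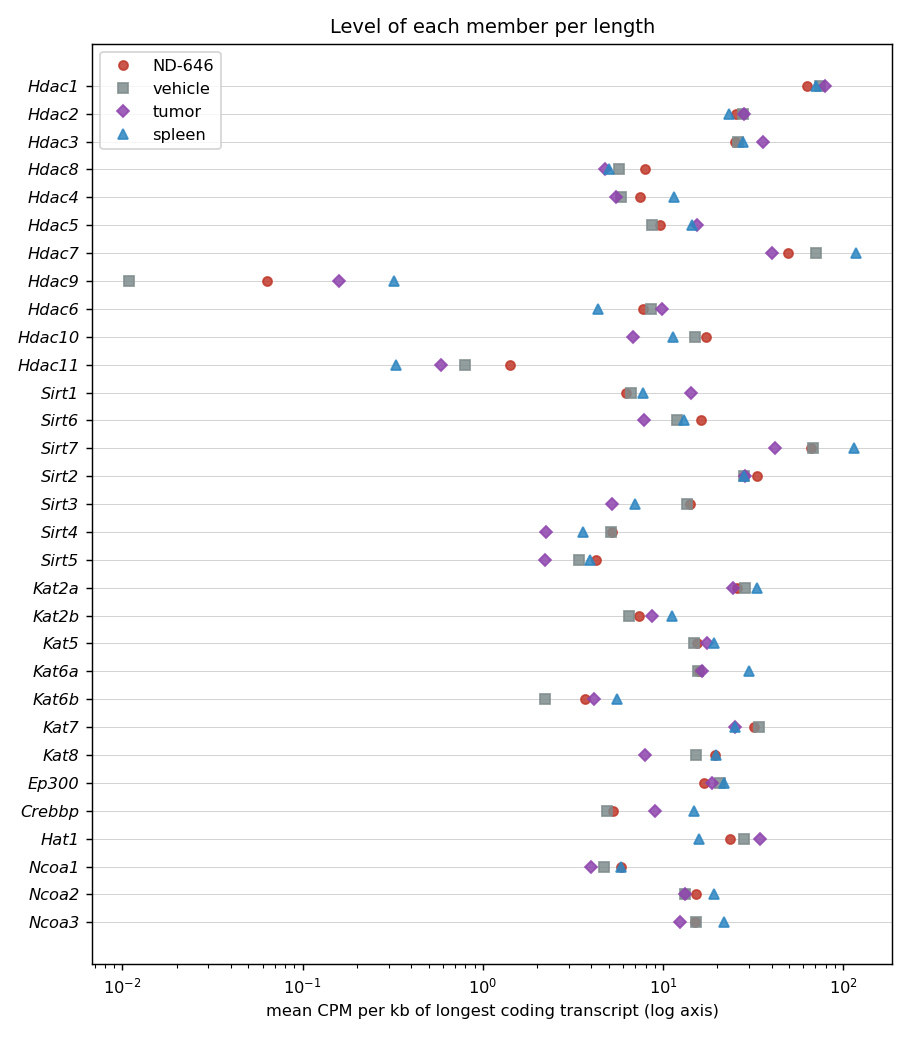
Mean level of each of the 31 genes in CPM per kilobase of its longest coding transcript (log axis) in the ND-646, vehicle, tumor and spleen groups. Hdac1, Hdac7 and Sirt7 are the highest in every group and Hdac9 and Hdac11 the lowest.

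Within the classical deacetylases, the summed level per kilobase shifted between classes. Class I enzymes held 65.2% ± 1.26 of it in tumor and 44.2% ± 0.299 in spleen, and class IIa enzymes held 27.2% ± 0.823 in tumor and 50.3% ± 0.360 in spleen (SD, n = 3 each). With ND-646 class I held 56.6% ± 0.341 and class IIa 31.1% ± 0.577, while with vehicle class I held 54.8% ± 0.801 and class IIa 35.2% ± 0.785 (SD, n = 4 each). The ranges of tumor and spleen, and those of ND-646 and vehicle, did not overlap for either class. Most of the class IIa share was Hdac7, at 17.8% in tumor and 41.1% in spleen. Hdac7 held 23.1% with ND-646 and 29.2% with vehicle. Hdac5 held more in tumor (6.87% against 5.02%) and with ND-646 (4.49% against 3.57%). Hdac4 held less in tumor (2.43% against 4.02%) and more with ND-646 (3.47% against 2.41%). In class I, Hdac1 averaged 29.4% with ND-646 and 30.4% with vehicle, while Hdac2, Hdac3 and Hdac8 averaged more with ND-646. These shares do not depend on the scaling of libraries. Among acetyltransferases, Hat1 held 11.7% ± 0.437 with ND-646 and 13.9% ± 0.255 with vehicle, 17.6% ± 0.204 in tumor and 6.55% ± 0.212 in spleen.

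Class I deacetylases act mainly in the nucleus, and Hdac1, Hdac2 and Hdac3 are catalytic subunits of repressor complexes. Of the 4, Hdac1 and Hdac2 fell with ND-646, Hdac8 rose, and Hdac3 was not called. Hdac1, found in the Sin3, NuRD and CoREST complexes, was at 130.1, 128, 125 and 130.2 CPM in the ND-646 libraries, against 148, 155, 148 and 151 CPM in the vehicle libraries. Every ND-646 library lay below every vehicle library, with a log2 fold change of -0.23 ± 0.03 (SE; edgeR adjusted p = 1.59e-05). Hdac2, its close relative in the same complexes, was at 80.9, 86.0, 85.7 and 75.4 CPM with ND-646, against 95.3, 90.8, 87.9 and 87.5 CPM with vehicle. The groups did not overlap, but the gap was narrow and the log2 fold change of -0.14 ± 0.05 (adjusted p = 0.0143) became -0.11 without vehicle library 1 (adjusted p = 0.0650) and -0.08 when scaled by CD8 identity genes (adjusted p = 0.133). Hdac8, a class I enzyme that works outside these complexes and deacetylates cohesin, was at 17.4, 14.9, 14.8 and 14.0 CPM with ND-646, against 11.1, 9.94, 11.6 and 11.3 CPM with vehicle. All ND-646 libraries were higher than all vehicle libraries (0.48 ± 0.08 on the log2 scale, adjusted p = 4.54e-05). Hdac3, the catalytic subunit of the NCoR and SMRT complexes, averaged 50.6 ± 1.70 CPM with ND-646 and 52.8 ± 2.73 CPM with vehicle, and these ranges overlapped (adjusted p = 0.265).

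Class IIa deacetylases shuttle between nucleus and cytoplasm in response to signals and repress MEF2 targets. They went in both directions with ND-646. Hdac7, the class IIa enzyme known for its role in thymocytes and T cells, was at 201, 216, 207 and 209.5 CPM with ND-646, against 296, 291, 303 and 309 CPM with vehicle. The groups did not overlap, and the log2 fold change of -0.52 ± 0.04 was the lowest of the 30 (1.44-fold lower, adjusted p = 9.90e-10). Hdac4 was at 59.6, 58.6, 59.9 and 62.3 CPM with ND-646, against 46.9, 48.0, 48.9 and 46.2 CPM with vehicle. It was higher in all 4 ND-646 libraries than in any vehicle library (0.34 ± 0.04, adjusted p = 1.04e-06). Hdac5 averaged 46.6 ± 3.35 CPM with ND-646 and 42.1 ± 2.48 CPM with vehicle, with overlapping ranges (0.15 ± 0.06, adjusted p = 0.0279). Leaving out ND-646 library 1, ND-646 library 2, vehicle library 1 or vehicle library 2 ended that call (0.10 to 0.13, adjusted p 0.0786 to 0.130), as did the DESeq2 Wald test (0.14, adjusted p = 0.0640). Hdac9 had at most 26 counts in any culture library and was not tested; it was at 0.205 to 0.827 CPM with ND-646 and at 0 to 0.175 CPM with vehicle.

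Class IIb enzymes act largely in the cytoplasm, and class IV has Hdac11 as its single member. Hdac6, which deacetylates tubulin, was at 32.0, 32.5, 32.0 and 30.9 CPM with ND-646, against 33.9, 34.3, 36.8 and 36.2 CPM with vehicle. The groups lay close without overlap (-0.15 ± 0.05, adjusted p = 0.0122), and under CD8 identity scaling the call was lost (-0.09, adjusted p = 0.109). Hdac10, a polyamine deacetylase, was at 44.1, 39.9, 40.1 and 42.2 CPM with ND-646, against 36.0, 36.9, 35.2 and 36.7 CPM with vehicle. All ND-646 libraries were above all vehicle libraries (0.20 ± 0.05, adjusted p = 0.00126). Hdac11, which removes long fatty acyl groups from lysine, was at 3.85, 3.98, 3.71 and 3.50 CPM with ND-646, against 2.13, 2.17, 2.02 and 2.09 CPM with vehicle. The groups did not overlap, and its log2 fold change of 0.84 ± 0.13 (1.79-fold, adjusted p = 1.75e-05) was the largest of the 30, at a low level.

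Sirtuins either rose with ND-646 (3 of 7, beside 29.8% of all genes) or were not called. Sirt6, a chromatin-bound deacetylase involved in DNA repair and in the restraint of glycolytic genes, was at 31.3, 29.2, 28.8 and 33.2 CPM with ND-646, against 21.0, 21.6, 23.6 and 23.6 CPM with vehicle. It was higher in every ND-646 library (0.45 ± 0.06, adjusted p = 5.45e-06). Sirt2, the cytosolic tubulin deacetylase, was at 71.1, 71.3, 68.8 and 69.8 CPM with ND-646, against 60.2, 60.1, 60.8 and 58.1 CPM with vehicle. The groups were apart by several times their spread (0.23 ± 0.04, adjusted p = 3.48e-05). Sirt5, the mitochondrial desuccinylase, was at 9.96, 10.1, 10.1 and 11.1 CPM with ND-646, against 8.89, 7.45, 8.12 and 8.70 CPM with vehicle. ND-646 libraries were again all higher (0.32 ± 0.08, adjusted p = 0.00229). The 4 others did not pass the test: Sirt1, a nuclear deacetylase of histones and transcription factors, averaged 27.7 ± 0.178 CPM with ND-646 and 29.4 ± 1.48 CPM with vehicle (adjusted p = 0.179). Sirt7, a nucleolar sirtuin tied to ribosomal RNA transcription, averaged 114 ± 3.88 CPM with ND-646 and 117 ± 3.27 CPM with vehicle (adjusted p = 0.305). Sirt3, the main mitochondrial deacetylase, averaged 22.6 ± 1.70 CPM with ND-646 and 21.8 ± 1.77 CPM with vehicle, and Sirt4, a mitochondrial lipoamidase, averaged 9.34 ± 0.538 CPM with ND-646 and 9.19 ± 0.451 CPM with vehicle.

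Acetyltransferases were also divided with ND-646. Of the 13, 5 rose (Kat6b, Kat8, Ncoa1, Ncoa2 and Kat2b), 4 fell (Ep300, Hat1, Kat2a and Kat7) and 4 were not called (Crebbp, Kat5, Kat6a and Ncoa3). Thus 38.5% rose and 30.8% fell, near the 29.8% and 26.5% of all genes. The largest rise was that of Kat6b, also called MORF, a MYST enzyme that acetylates histone H3, at 29.1, 27.8, 28.8 and 27.6 CPM with ND-646, against 17.0, 15.8, 17.3 and 18.2 CPM with vehicle. No library came near the other group (0.73 ± 0.06, 1.66-fold, adjusted p = 5.06e-09). Its relative Kat6a averaged 143 ± 13.4 CPM with ND-646 and 143 ± 4.86 CPM with vehicle (adjusted p = 0.972). Kat8, also called MOF, a histone H4 acetyltransferase of the MSL and NSL complexes, was at 32.7, 30.0, 28.8 and 30.7 CPM with ND-646, against 24.7, 26.5, 21.6 and 23.7 CPM with vehicle. All ND-646 libraries were above all vehicle libraries (0.34 ± 0.06, adjusted p = 0.000168). Kat7, also called HBO1 and known for its part in licensing replication origins, was at 110.1, 114, 117 and 113 CPM with ND-646, against 124, 120.0, 120.2 and 120.4 CPM with vehicle. The groups did not overlap, but the difference was the smallest of the called ones (-0.10 ± 0.03, adjusted p = 0.0267), and was lost without vehicle library 1 (adjusted p = 0.0824), with no low-count filter (adjusted p = 0.0934) and under CD8 identity scaling (adjusted p = 0.404). Kat5, also called Tip60, the enzyme of the NuA4 complex, averaged 33.3 ± 2.62 CPM with ND-646 and 32.1 ± 0.788 CPM with vehicle (adjusted p = 0.429).

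Ep300 (p300) and Crebbp (CBP) acetylate histone H3 at enhancers. Ep300 was at 142, 164, 174 and 161 CPM with ND-646, against 200.3, 191, 196 and 200.3 CPM with vehicle. Every ND-646 library was lower, although these libraries varied more than the vehicle ones (-0.29 ± 0.05, adjusted p = 8.30e-05). Crebbp averaged 57.0 ± 5.21 CPM with ND-646 and 52.7 ± 3.46 CPM with vehicle and was not called (adjusted p = 0.147), but was without ND-646 library 1 (0.16, adjusted p = 0.0186) and with no low-count filter (0.12, adjusted p = 0.0293). Hat1, which acetylates new histone H4 before it is assembled into chromatin, was at 42.9, 46.6, 46.8 and 41.9 CPM with ND-646, against 53.2, 54.5, 53.7 and 53.0 CPM with vehicle. It was lower in all ND-646 libraries (-0.27 ± 0.04, adjusted p = 5.67e-05).

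Kat2a (GCN5) and Kat2b (PCAF) are alternative catalytic subunits of the SAGA and ATAC complexes, and they moved apart. Kat2a was at 78.5, 75.9, 79.3 and 77.8 CPM with ND-646, against 85.3, 89.0, 82.3 and 88.0 CPM with vehicle. It was lower without overlap (-0.15 ± 0.04, adjusted p = 0.00303), and just missed the threshold under CD8 identity scaling (-0.09, adjusted p = 0.0545). Kat2b was at 33.7, 34.5, 33.6 and 34.1 CPM with ND-646, against 30.5, 30.4, 30.4 and 29.7 CPM with vehicle. It was higher in every ND-646 library (0.17 ± 0.04, adjusted p = 0.00374). Among the nuclear receptor coactivators, Ncoa1 was at 40.7, 41.0, 45.3 and 45.0 CPM with ND-646, against 34.6, 33.6, 34.04 and 35.4 CPM with vehicle, with no overlap (0.32 ± 0.05, adjusted p = 1.91e-05). Ncoa2 was at 114, 125, 137 and 122 CPM with ND-646, against 105, 101, 114 and 111 CPM with vehicle. Its ranges touched, since ND-646 library 1 lay at the level of vehicle library 3 (0.21 ± 0.05, adjusted p = 0.00292). Ncoa3 averaged 113 ± 5.82 CPM with ND-646 and 115 ± 2.52 CPM with vehicle (adjusted p = 0.662).

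A group of 6 acetyltransferases with long transcripts varied together between the ND-646 libraries themselves. Kat6a, Ep300, Crebbp, Ncoa1, Ncoa2 and Ncoa3 were each lowest in ND-646 library 1 and highest in ND-646 library 3. They are 6 of the 9 members whose longest coding transcript has 7000 bases or more. The rest of the 9 went otherwise, with Kat6b and Hdac9 highest in ND-646 library 1 and Hdac4 highest in library 4. Of the 22 shorter members, 4 were lowest in ND-646 library 1. Over all 995 such genes tested, the median deviation from the group mean was -0.10 on the log2 scale in ND-646 library 1 and 0.07 in library 3, against 0.01 and -0.01 over 10962 shorter genes. The part of transcript length in these values was not tested.

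**Figure D3:**
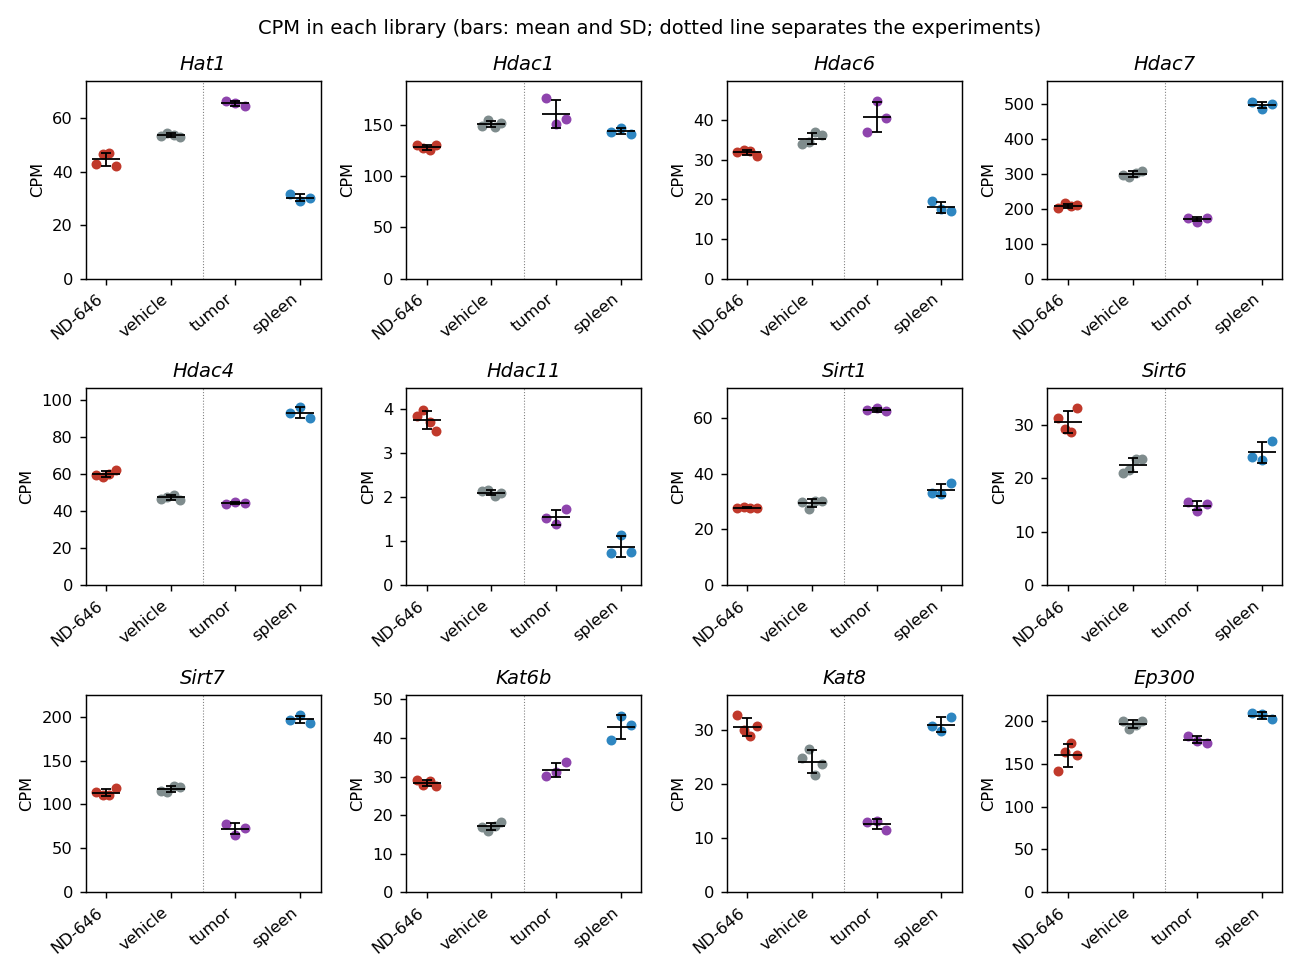
CPM of 12 of the genes in each library of the ND-646, vehicle, tumor and spleen groups, with the mean and SD as bars; the dotted line separates the 2 experiments, which were not compared. Hat1 and Hdac6 lie lower with ND-646 than with vehicle and higher in tumor than in spleen, whereas Hdac7 lies lower in both.

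Under TMM scaling, 3 of the 4 class I deacetylases were higher in tumor than in spleen, beside 43.6% of all genes. Of the 4 class IIa enzymes, 3 were lower, beside 40.2% of all genes. Hdac3 was at 74.7, 71.8 and 72.0 CPM in tumor, against 59.1, 54.5 and 55.5 CPM in spleen. The groups were far apart (0.37 ± 0.05, adjusted p = 0.000101, and 1.36 under CD8 identity scaling). Hdac2 was at 85.1, 97.8 and 89.6 CPM in tumor, against 75.8, 72.2 and 77.6 CPM in spleen, with every tumor library higher (0.27 ± 0.06, adjusted p = 0.00232). Hdac1 was at 176, 151 and 155 CPM in tumor, against 143, 147 and 141 CPM in spleen. Tumor library 1 stood above the other 2, and the narrow gap (0.16 ± 0.06, adjusted p = 0.0365) was not called without spleen library 1, 2 or 3 (adjusted p 0.0573 to 0.0719). Hdac8 averaged 9.27 ± 0.449 CPM in tumor and 9.64 ± 0.348 CPM in spleen (adjusted p = 0.634).

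Hdac7 was at 173, 163 and 175 CPM in tumor, against 505, 487 and 499 CPM in spleen. It was 2.92-fold lower, with no tumor library near a spleen library (-1.55 ± 0.05, adjusted p = 6.31e-09) and stayed lower under CD8 identity scaling (-0.56 ± 0.10). Hdac4 was at 43.7, 45.3 and 44.4 CPM in tumor, against 93.3, 96.1 and 90.3 CPM in spleen. The tumor libraries lay close together and far below every spleen library (-1.07 ± 0.05, adjusted p = 4.02e-08), but under CD8 identity scaling the difference was -0.08 ± 0.13 and not called. Hdac9 was at 1.09, 1.03 and 1.67 CPM in tumor, against 2.22, 2.75 and 2.64 CPM in spleen. Its low counts separated without overlap (-0.998 ± 0.256, adjusted p = 0.00497), and under CD8 identity scaling the difference was -0.02 ± 0.29. Hdac5 averaged 75.2 ± 2.37 CPM in tumor and 69.7 ± 2.87 CPM in spleen and was not called (adjusted p = 0.0741), but was without tumor library 1, tumor library 2 or spleen library 1 (0.14 to 0.17, adjusted p 0.00670 to 0.0381), with DESeq2 size factors (0.18, adjusted p = 0.0101), with its Wald test (0.19, adjusted p = 0.00754) and under CD8 identity scaling (1.10).

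Hdac6 had the largest rise of the 31. It was at 36.9, 44.7 and 40.6 CPM in tumor, against 19.6, 17.4 and 17.0 CPM in spleen. Every tumor library lay far above every spleen library (1.18 ± 0.09, 2.26-fold, adjusted p = 1.46e-06). Its class IIb relative Hdac10 was at 15.6, 16.8 and 16.9 CPM in tumor, against 27.4, 27.5 and 26.7 CPM in spleen. It was lower in every tumor library under TMM (-0.73 ± 0.07, adjusted p = 8.32e-06), while the sign turned under CD8 identity scaling (0.26 ± 0.15, not called). Hdac11 was at 1.53, 1.39 and 1.72 CPM in tumor, against 0.723, 1.15 and 0.748 CPM in spleen. Spleen library 2 came closest to the tumor libraries (0.82 ± 0.28, adjusted p = 0.0212), and the call was lost without tumor library 3, spleen library 1 or spleen library 3 (adjusted p 0.0652 to 0.0680) and with the replicate block (adjusted p = 0.0502).

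Among sirtuins, Sirt1 was higher in tumor, 5 others were lower under TMM (beside 40.2% of all genes) and Sirt2 was not called. Sirt1 was at 62.9, 63.6 and 62.2 CPM in tumor, against 33.2, 32.7 and 36.7 CPM in spleen. The tumor libraries were tightly grouped above all spleen libraries (0.88 ± 0.06, 1.84-fold, adjusted p = 5.50e-07). Sirt7 was at 78.0, 65.4 and 73.1 CPM in tumor, against 196, 202 and 193 CPM in spleen. It was lower under both scalings (-1.45 ± 0.07 with TMM, adjusted p = 3.88e-08, and -0.47 ± 0.10 with CD8 identity genes). Sirt6 was at 15.5, 13.9 and 15.2 CPM in tumor, against 23.9, 23.5 and 27.1 CPM in spleen, with no overlap (-0.74 ± 0.09, adjusted p = 3.50e-05; 0.24 ± 0.14 under CD8 identity scaling, not called). The 3 mitochondrial sirtuins were each lower under TMM. Sirt5 was at 4.10, 6.31 and 5.64 CPM in tumor, against 9.21, 9.79 and 9.72 CPM in spleen. The tumor libraries were spread more widely and all below spleen (-0.84 ± 0.16, adjusted p = 0.000943; 0.17 ± 0.24 under CD8 identity scaling, not called). Sirt3 was at 8.35, 8.16 and 8.65 CPM in tumor, against 11.4, 11.2 and 11.1 CPM in spleen. Its groups were narrow and apart (-0.42 ± 0.10, adjusted p = 0.00363), and the direction reversed to a called rise under CD8 identity scaling (0.57 ± 0.16, adjusted p = 0.00680). Sirt4 averaged 4.00 ± 0.499 CPM in tumor and 6.48 ± 0.207 CPM in spleen (-0.69 ± 0.15, adjusted p = 0.00189; 0.30 ± 0.21 under CD8 identity scaling, not called). Sirt2 averaged 60.2 ± 6.47 CPM in tumor and 59.4 ± 1.76 CPM in spleen (adjusted p = 0.817), but was called higher without tumor library 2 (0.14, adjusted p = 0.0339) and under CD8 identity scaling (0.999, adjusted p = 4.20e-06).

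Of the 13 acetyltransferases, Hat1 was higher in tumor, 10 were lower under TMM, and Kat5 and Kat7 were not called. Over all genes, 43.6% were higher and 40.2% lower. Hat1 was at 66.4, 65.5 and 64.3 CPM in tumor, against 31.7, 29.0 and 30.0 CPM in spleen. Every tumor library lay far above every spleen library (1.11 ± 0.06, 2.16-fold, adjusted p = 6.94e-08; 2.10 ± 0.13 under CD8 identity scaling). Kat8 had the lowest log2 fold change of the 13, at 12.9, 13.2 and 11.5 CPM in tumor, against 30.7, 29.8 and 32.4 CPM in spleen. The groups lay far apart (-1.30 ± 0.08, 2.47-fold lower, adjusted p = 3.57e-07), though under CD8 identity scaling the value was -0.31 ± 0.15 and not called (adjusted p = 0.0722). Kat6b was at 30.1, 31.2 and 33.8 CPM in tumor, against 39.5, 45.7 and 43.3 CPM in spleen. It was lower in every tumor library under TMM (-0.43 ± 0.07, adjusted p = 0.000425) and higher under CD8 identity scaling (0.56 ± 0.14, adjusted p = 0.00300). Kat6a averaged 150.3 ± 5.65 CPM in tumor and 275 ± 8.19 CPM in spleen (-0.87 ± 0.05, adjusted p = 1.90e-07; 0.12 ± 0.10 under CD8 identity scaling, not called). Kat7 averaged 88.6 ± 2.27 CPM in tumor and 89.6 ± 2.10 CPM in spleen (adjusted p = 0.768), and Kat5 averaged 37.6 ± 1.95 CPM in tumor and 41.3 ± 1.44 CPM in spleen (adjusted p = 0.0678). Kat5 was called lower with the stricter low-count filter (-0.15, adjusted p = 0.0328) and without tumor library 1 (-0.14, adjusted p = 0.0495), and higher under CD8 identity scaling (0.85).

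Crebbp was at 101, 92.7 and 98.4 CPM in tumor, against 165, 158 and 158 CPM in spleen. Ep300 was at 183, 178 and 175 CPM in tumor, against 209.9, 208 and 203 CPM in spleen. Both were lower in every tumor library under TMM, Crebbp by more (-0.72 ± 0.05, adjusted p = 6.75e-07) than Ep300 (-0.21 ± 0.05, adjusted p = 0.00161). Both were called higher under CD8 identity scaling, at 0.27 ± 0.11 for Crebbp and 0.78 ± 0.11 for Ep300. Kat2a was at 69.6, 79.0 and 73.7 CPM in tumor, against 97.2, 100.4 and 105 CPM in spleen. Kat2b was at 39.7, 42.6 and 39.4 CPM in tumor, against 54.8, 50.5 and 52.1 CPM in spleen. These 2 relatives were lower by like amounts under TMM (-0.45 ± 0.06 for Kat2a, adjusted p = 7.14e-05, and -0.37 ± 0.06 for Kat2b, adjusted p = 0.000256) and higher under CD8 identity scaling (0.55 ± 0.14 for Kat2a and 0.63 ± 0.14 for Kat2b).

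The 3 nuclear receptor coactivators were lower in tumor under TMM. Ncoa3 was at 101, 85.2 and 94.4 CPM in tumor, against 168, 158 and 164 CPM in spleen. Ncoa2 was at 118, 98.5 and 108 CPM in tumor, against 159, 153 and 157 CPM in spleen. Ncoa1 was at 30.8, 28.0 and 28.9 CPM in tumor, against 45.7, 41.1 and 41.1 CPM in spleen. No tumor library reached a spleen library for any of the 3, with log2 fold changes of -0.81 ± 0.07 for Ncoa3 (adjusted p = 2.02e-06), -0.53 ± 0.07 for Ncoa2 (adjusted p = 4.64e-05) and -0.54 ± 0.07 for Ncoa1 (adjusted p = 5.73e-05). Under CD8 identity scaling they were 0.17 ± 0.10 for Ncoa3 (not called), 0.45 ± 0.10 for Ncoa2 and 0.44 ± 0.12 for Ncoa1 (both called as higher).

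Ratios between related genes within a library are free of the scaling. A ratio of CPM is not corrected for length, so it is compared only between groups. Ep300 over Crebbp was 2.82 ± 0.0469 with ND-646 and 3.75 ± 0.202 with vehicle, and 1.84 ± 0.0708 in tumor and 1.29 ± 0.0229 in spleen (SD). It was thus lower with ND-646 and higher in tumor, with no overlap in either comparison. Hdac7 over Hdac4 was 3.47 ± 0.153 with ND-646 and 6.32 ± 0.269 with vehicle, and 3.83 ± 0.196 in tumor and 5.34 ± 0.243 in spleen. Kat6a over Kat6b was 5.07 ± 0.503 with ND-646 and 8.40 ± 0.392 with vehicle, and 4.75 ± 0.370 in tumor and 6.44 ± 0.659 in spleen. Both of these ratios were lower in the ND-646 and tumor libraries without overlap. Hdac6 over Hdac10 was 0.768 ± 0.0462 with ND-646 and 0.976 ± 0.0522 with vehicle, and 2.48 ± 0.160 in tumor and 0.661 ± 0.0452 in spleen. Sirt7 over Sirt1 was 1.15 ± 0.109 in tumor and 5.79 ± 0.459 in spleen, whereas the cultures overlapped at 4.10 ± 0.144 with ND-646 and 4.00 ± 0.160 with vehicle. Kat2a over Kat2b was 2.29 ± 0.0706 with ND-646 and 2.85 ± 0.120 with vehicle, and overlapped between tumor (1.82 ± 0.0635) and spleen (1.93 ± 0.134). Other pairs were computed too. Hdac1 over Hdac2 overlapped in both comparisons, at 1.57 ± 0.124 with ND-646 and 1.67 ± 0.0775 with vehicle. It was 1.78 ± 0.266 in tumor and 1.91 ± 0.109 in spleen. Hdac1 over Hdac8, Ncoa3 over Ncoa1 and Hat1 over Kat8 did not overlap in either comparison. Ratios that differ show unequal change and do not say which gene of a pair moved.

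**Figure D4:**
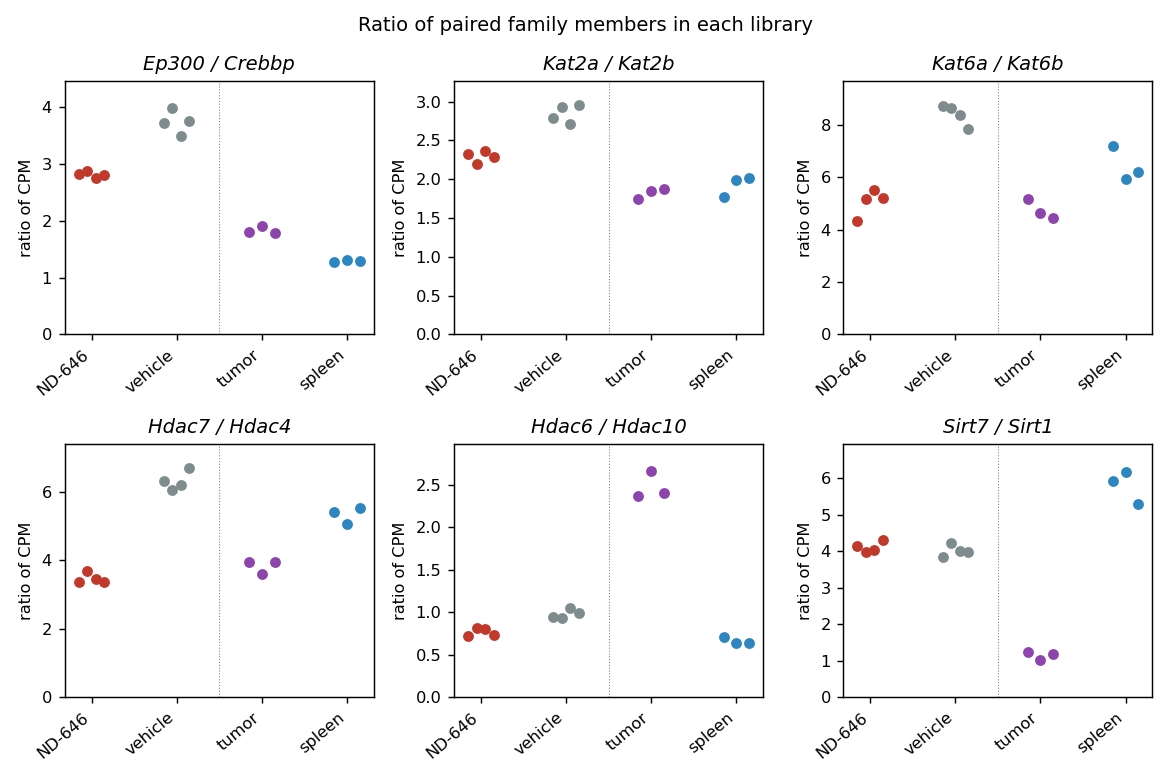
Ratio of CPM between 6 pairs of related genes in each library of the ND-646, vehicle, tumor and spleen groups; each point is a library and the dotted line separates the 2 experiments. Ep300 over Crebbp is lower with ND-646 than with vehicle and higher in tumor than in spleen, and Sirt7 over Sirt1 is far lower in tumor than in spleen.

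The 2 experiments share no sample. Of the 17 genes called in both under TMM, 13 had opposite directions. Hdac1, Hdac2, Hdac6 and Hat1 fell with ND-646 and were higher in tumor, under CD8 identity scaling too except that Hdac2 and Hdac6 were then not called with ND-646. Hdac4, Hdac10, Sirt5, Sirt6, Kat2b, Kat6b, Kat8, Ncoa1 and Ncoa2 rose with ND-646 and were lower in tumor under TMM, but none of these 9 was called lower in tumor under CD8 identity scaling. Hdac7, Kat2a and Ep300 were lower in both under TMM, Hdac11 was higher in both, and Kat2a and Ep300 were called higher in tumor under CD8 identity scaling. Opposite directions made up 76.5% of the 17 under TMM, against 59.9% of the 6538 genes called in both over the whole tables. The share depends on the scaling: under CD8 identity scaling 12 of the genes were called in both, of which 3 (Hdac1, Hat1 and Ep300) had opposite directions, or 25%, against 43.6% of 6552 genes over the whole tables. Of the cell cycle genes, 30 of 30 fell with ND-646 (sums of 2622 to 3193 CPM, against 4554 to 4735 CPM with vehicle) and 30 of 30 were higher in tumor (4094 to 4460 CPM, against 929 to 1105 CPM in spleen) under TMM. That is the direction of 4 of the 13 enzymes with opposite directions, and the reverse of the other 9. Mki67, a marker of dividing cells, averaged 277 ± 55.1 CPM with ND-646 and 624 ± 39.7 CPM with vehicle, and 451 ± 27.3 CPM in tumor and 56.7 ± 15.7 CPM in spleen. The part of proliferation in the values of the 31 genes was not tested.

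**Figure D5:**
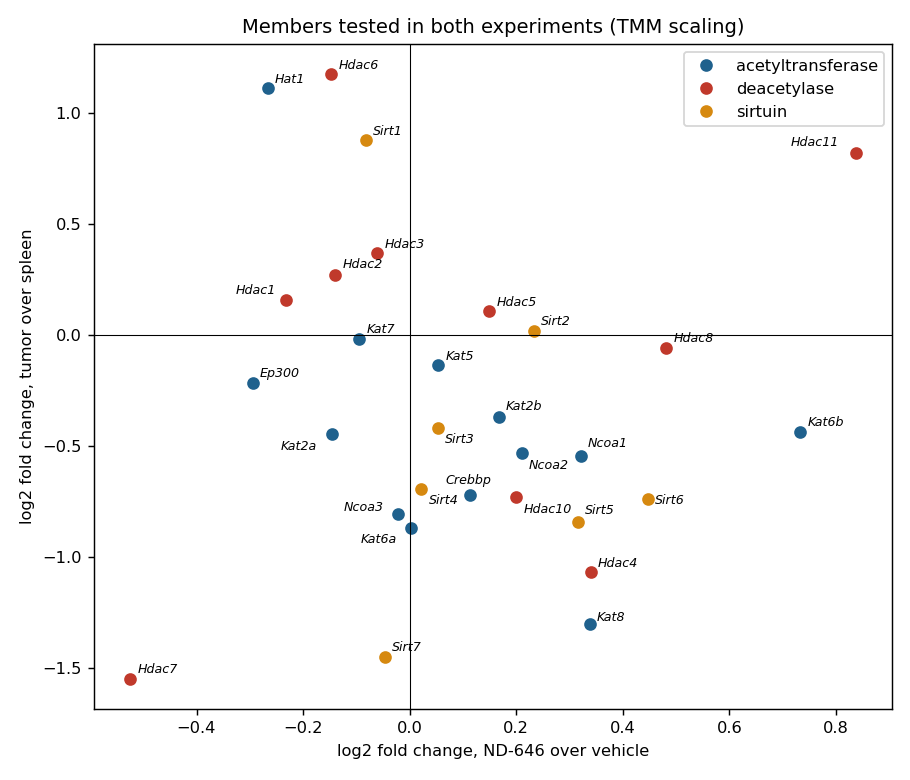
Log2 fold change with ND-646 over vehicle (x axis) and in tumor over spleen (y axis, TMM scaling) of the 30 genes tested in both experiments, colored by family. Hat1 and Hdac6 sit at the upper left, Hdac7 at the lower left and Hdac11 alone at the upper right corner; under CD8 identity scaling all points would move up by about 0.99.

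A list of 25 genes around the supply of acetyl-CoA and NAD also holds users of these metabolites, such as Acaca. Of these 25, 6 rose and 6 fell with ND-646, beside 29.8% and 26.5% of all genes. In tumor 14 were higher and 6 lower under TMM, beside 43.6% and 40.2% of all genes (median log2 fold change 0.23 against 0.03 over all genes). Acly, which makes acetyl-CoA from citrate in the cytosol, averaged 324 ± 10.8 CPM with ND-646 and 377 ± 3.65 CPM with vehicle (-0.22 ± 0.04, adjusted p = 4.41e-05), and 383 ± 6.38 CPM in tumor and 259 ± 4.58 CPM in spleen (0.56 ± 0.04, adjusted p = 1.80e-06). Acss2, which makes it from acetate, averaged 23.9 ± 1.52 CPM with ND-646 and 28.3 ± 1.62 CPM with vehicle (adjusted p = 0.00194). In tumor Acss2 averaged 15.6 ± 1.68 CPM, against 78.6 ± 2.74 CPM in spleen (-2.33 ± 0.08, adjusted p = 7.86e-09), so these sources of acetyl-CoA went the same way with ND-646 and opposite ways in tumor. Nampt, the rate-limiting enzyme of NAD salvage on which sirtuins depend, averaged 101 ± 3.30 CPM with ND-646 and 79.1 ± 4.04 CPM with vehicle (0.35 ± 0.04, adjusted p = 1.29e-06). Nampt averaged 77.8 ± 8.28 CPM in tumor and 34.8 ± 1.60 CPM in spleen (1.16 ± 0.08, adjusted p = 7.49e-07). Slc25a1, the mitochondrial citrate carrier, averaged 99.3 ± 3.79 CPM with ND-646 and 98.9 ± 6.23 CPM with vehicle (adjusted p = 0.923), and 52.5 ± 4.61 CPM in tumor and 22.2 ± 1.67 CPM in spleen (1.24 ± 0.09, adjusted p = 6.27e-07). Acaca, the transcript of the inhibited enzyme's main cytosolic form, averaged 144 ± 9.17 CPM with ND-646 and 142 ± 5.72 CPM with vehicle (adjusted p = 0.797), and 83.6 ± 0.542 CPM in tumor and 59.9 ± 1.05 CPM in spleen (0.48 ± 0.04, adjusted p = 5.38e-06). Pdha1, of the pyruvate dehydrogenase complex, was not called with ND-646 (adjusted p = 0.359) and was higher in tumor (0.22 ± 0.05, adjusted p = 0.00435).

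Partner subunits and readers of the mark changed in both directions with ND-646 and were more often lower than higher in tumor under TMM. Of 36 tested subunits of deacetylase complexes, 15 rose and 9 fell with ND-646, and 12 were higher and 18 lower in tumor. Chd4, a remodeler of NuRD, averaged 599 ± 25.5 CPM with ND-646 and 722 ± 21.8 CPM with vehicle (-0.27 ± 0.04, adjusted p = 1.42e-05), in the direction of Hdac1 and Hdac2, its partners. Chd3, another of these subunits, lay the other way, at 137 to 164 CPM with ND-646 and 101 to 111 CPM with vehicle. In tumor Chd4 was lower than in spleen under TMM (-0.16 ± 0.05, edgeR adjusted p = 0.0117), opposite to Hdac1 and Hdac2. Ncor1, the scaffold of Hdac3, averaged 244 ± 6.32 CPM in tumor and 448 ± 2.19 CPM in spleen (-0.87 ± 0.05, adjusted p = 9.23e-08), opposite to Hdac3. With ND-646 Ncor1 rose (0.24 ± 0.05, edgeR adjusted p = 0.000771), while Hdac3 was not called. Of 43 subunits of acetyltransferase complexes, 17 rose and 7 fell with ND-646, and 10 were higher and 23 lower in tumor (median -0.21). Morf4l1, a subunit shared by NuA4 and Sin3 complexes, averaged 332 ± 8.20 CPM with ND-646 and 285 ± 11.3 CPM with vehicle (0.22 ± 0.04, adjusted p = 6.91e-05). Morf4l1 was also higher in tumor under TMM (0.26 ± 0.05, adjusted p = 0.000590). Ep400, the large subunit of NuA4, averaged 222 ± 7.45 CPM in tumor and 361 ± 4.45 CPM in spleen (-0.70 ± 0.05, adjusted p = 5.29e-07). Ep400 also fell with ND-646 (-0.19 ± 0.06, adjusted p = 0.0103). Against these counts, 29.8% of all genes rose and 26.5% fell with ND-646, and 43.6% were higher and 40.2% lower in tumor. Of 23 tested acetyl-lysine readers, 11 rose and 2 fell with ND-646, and 4 were higher and 16 lower in tumor (median -0.29). Brd2, a BET bromodomain protein, was 1 of the 4 readers higher in tumor, at 684 ± 15.6 CPM, against 415 ± 8.94 CPM in spleen (0.72 ± 0.05, adjusted p = 3.78e-07), while Baz2a, a nucleolar reader, averaged 120.1 ± 7.17 CPM in tumor and 306 ± 8.37 CPM in spleen (-1.35 ± 0.06, adjusted p = 2.49e-08). Medians of all genes in tumor move up by 0.99 under CD8 identity scaling, which is more than the distance of each of these list medians from 0.

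Some of the 31 genes share exons with a neighbor in the GENCODE M21 annotation. An exon overlaps an exon of another gene for 13 of them, on the opposite strand for 10 and on the same strand for 3, and with a protein-coding gene for 7 (Hdac7, Kat5, Kat8, Ncoa3, Sirt2, Sirt3 and Sirt7). Libraries were strand-specific, but use of the strand in counting is not stated in the labels, and the values of these genes are less certain. Sirt7 shares its strand with its neighbor Mafg, and reads from their common stretch cannot be told apart.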

How the data were processed

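Estimated counts per gene symbol were deposited by the authors as a table for each of the 2 experiments, and STAR, Salmon and DESeq2 are the tools listed, with no version or role, per the submitters' processing notes. The sources used here name neither the genome build and annotation nor how strand entered the counting. Per the labels, libraries were poly(A)-selected, strand-specific and read in pairs. Since column totals differ, these deposited values were read as unnormalized. They were rounded to integers before testing: 9.16% of the culture values and 9.15% of the tumor and spleen values had a fractional part (tolerance 1e-06). All columns were matched to samples by title.

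The 2 comparisons were fitted separately with edgeR 4.0.16 under R 4.3.3. The fit used TMM scaling, genes kept by filterByExpr and robust quasi-likelihood F tests, with Benjamini-Hochberg adjustment across all tested genes; a gene is called at an adjusted p under 0.05. Standard errors were derived from the F statistic. The members and gene lists (12 lists, 260 symbols, 1 of them not in the tables) were chosen with earlier results of these data known. All 31 members were described; of each list the 2 tested genes with the highest mean CPM, plus Acly, Acss2, Acaca, Nampt, Pdha1 and Slc25a1, were eligible to be named, and other list genes named were chosen after their values were seen. Members described library by library are the extremes of each class among called members and those called in opposite directions.

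Nothing in the labels says that replicates are separate mice or cultures, and p-values therefore reflect only how these libraries vary, which may be technical. Every replicate pair differed by more than sampling noise (chi-square per degree of freedom 2.33 to 18.3 over genes with at least 10 counts), and all were counted separately. ND-646 libraries 1 and 4 (5.07) and 2 and 3 (3.65) were nearer each other than across these pairs (7.37 to 11.3). Floors of 3 counts cover counting error only. On simulated counts (5 draws), 59.3%, 74.7%, 89.8% and 99.2% of genes changed 1.25, 1.5, 2 and 4-fold were recovered in the culture comparison (14251 genes), with 7.29% of 851 calls false. In the tumor comparison (15042 genes) the shares were 17.8%, 59.9%, 75.9% and 98.3%, with 9.78% of 675 calls false. Each draw changed only 50 genes per fold, whereas 56.3% and 83.8% of genes were called in the data. Recovered and false shares therefore do not carry over to the fits of the data.

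Lengths and exon overlaps are from GENCODE M21 and promoters from RefSeq GRCm38.p6. The alternatives tried were size factors and the Wald test of DESeq2 1.42.0, limma-voom (limma 3.58.1), scaling by the geometric mean count of the 17 CD8 identity genes, 2 other filters on low counts, a replicate block, an adjusted p of 0.01 and omission of each library in turn. Summing ND-646 libraries 1 with 4 and 2 with 3 was added after the data were seen.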

Additional observations from a re-analysis of the deposited data

Results flagged for a closer look

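In groups of 4 libraries, 3 of the 62 combinations of a gene and a culture group held a library that stood apart from the other 3 by Dixon's criterion, about as many as the 1 in 20 that chance gives. Sirt1 was at 27.2 CPM in vehicle library 2, against 30.0 to 30.2 CPM in the other vehicle libraries. Sirt5 was at 11.1 CPM in ND-646 library 4, against 9.96 to 10.1 CPM in the other ND-646 libraries. Kat7 was at 123.7 CPM in vehicle library 1, against 120.0 to 120.4 CPM in the other vehicle libraries, and it is the library without which Kat7 lost its call. Tumor and spleen groups of 3 were not examined in this way.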

How the results depend on the processing

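Over all alternatives, 475 of 510 values for single genes with ND-646 and 387 of 434 in tumor kept their direction and their side of the threshold. Genes called ran from 7424 to 7932 with ND-646 and from 12342 to 12928 in tumor when a library was left out; members called were then 12 to 13 higher and 6 to 8 lower with ND-646, and 5 to 9 higher and 19 to 20 lower in tumor. Scaling by CD8 identity genes left 4 members lower with ND-646 in place of 8, and gave 20 higher and 2 lower in tumor in place of 7 and 19; with ND-646 the count of higher members stayed at 13. At an adjusted p of 0.01, 5 members were lower with ND-646. The CD8 identity genes are lower in tumor under TMM, and the cause of that was not tested.

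Apart from CD8 identity scaling in tumor, signs turned for uncalled values near 0. Kat6a with ND-646 was -0.013 with DESeq2 size factors, -0.0025 with its Wald test, -0.0014 with limma-voom, -0.0069 with the stricter filter, -0.00079 with the replicate block and -0.0073 with libraries summed, and -0.055 to 0.048 when a library was left out. Sirt4 ran from -0.0061 to 0.051 and Sirt3 from -0.0049 to 0.086 when a library was left out, and CD8 identity scaling gave 0.011 for Sirt7 and 0.035 for Ncoa3. In tumor, Kat7 was 0.050 with DESeq2 size factors, 0.061 with its Wald test, 0.0050 with no filter and -0.0034 to 0.032 when a library was left out, and Hdac8 was 0.0082 with DESeq2 size factors and 0.019 with its Wald test. CD8 identity scaling reversed 17 tumor values, to 0.93 for Hdac8, 0.26 for Hdac10, 0.24 for Sirt6, 0.57 for Sirt3, 0.30 for Sirt4, 0.17 for Sirt5, 0.55 for Kat2a, 0.63 for Kat2b, 0.85 for Kat5, 0.12 for Kat6a, 0.56 for Kat6b, 0.97 for Kat7, 0.78 for Ep300, 0.27 for Crebbp, 0.44 for Ncoa1, 0.45 for Ncoa2 and 0.17 for Ncoa3.

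The labels do not say whether replicate numbers pair the samples. Same-numbered ND-646 and vehicle libraries had correlations of deviations from -0.14 to 0.057, and tumor and spleen ones from -0.026 to -0.021. With so few libraries per group, these values cannot show whether samples were paired. With the replicate block, 7864 genes were called with ND-646 and 12492 in tumor, and Hdac11 in tumor was not called (adjusted p = 0.0502). With ND-646 libraries summed, 7567 genes were called, and Kat7 was not (adjusted p = 0.0516). Depth limits Hdac9 and Hdac11, whose levels were lowest.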
